A study of Mus musculus with 108 samples.

Results

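The genes described here encode receptors for GABA, glutamate, serotonin, dopamine and acetylcholine, and their chromatin was read in mouse liver, an organ made mostly of hepatocytes. The members were all autosomal protein-coding genes with a curated RefSeq transcript in mm10 whose symbols begin with Gabr, Gria, Grik, Grin1, Grin2, Grin3, Grm, Htr, Drd, Chrn or Chrm followed by the characters of a subunit. There were 78 such genes of 20021 autosomal protein-coding genes: 16 subunits of the GABA-A family, 3 AMPA, 5 kainate and 7 NMDA receptor subunits, 8 metabotropic glutamate receptors, 13 serotonin and 5 dopamine receptors, 16 nicotinic subunits and 5 muscarinic receptors. The rule used symbols and annotation only, although earlier results of these data were known when it was set.

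The study performed ChIP-seq for 4 marks, the methylations H3K4me1, H3K4me3 and H3K27me3 and the acetylation H3K27ac, in formalin-fixed, paraffin-embedded livers of inbred C57BL/6 females. SD 3m comprised 8 mice of 3 months on standard diet with 30 libraries, SD 12m comprised 8 mice of 12 months on the same diet with 29 libraries, and CR 12m comprised 9 mice of 12 months whose calories were restricted by 30%, with 29 libraries. No group carried an engineered allele. The authors merged the libraries of a group and gave each bin of 200 bp 1 of 8 chromatin states, so that each group has 1 segmentation, the reads behind a state are unknown, and no difference between groups can be set against the spread between mice. All values below are therefore descriptions of 3 segmentations, given beside the same value over all autosomal protein-coding genes.

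Fast synaptic receptors are ion channels built of several subunits, which open when GABA, glutamate, acetylcholine or serotonin binds, whereas the metabotropic glutamate, dopamine, muscarinic and most serotonin receptors signal through G proteins. Their main site of use is the nervous system, and a few are known in peripheral tissues. Silent genes in differentiated tissues can carry H3K27me3, the mark deposited by the Polycomb repressive complex, or can lack all 4 marks. In the segmentations, state 6 (repressed Polycomb) holds H3K27me3 alone and state 8 (quiescent) holds none of the marks. States 1 and 2 are active and flanking TSS, states 3 and 4 are active enhancers, state 5 is a poised enhancer, and state 7 has weak H3K4me3 with minimal H3K27me3.

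Over all autosomes, state 6 covered 8.26%, 12.4% and 9.42% of the bins in the order SD 3m, SD 12m, CR 12m, and state 8 covered 66.0%, 51.8% and 62.1%. The H3K27me3 libraries merged numbered 7, 8 and 6 in the same order; the part of coverage and of library number in the results below was not tested. The TSS bins of all 10 hepatocyte markers examined, among them Alb and Hnf4a, were in states 1 to 5 in each group. Of 7 neuronal markers, among them Snap25 and Syt1, 5, 6 and 6 had the TSS bin in state 6 in the 3 groups, and the neuronal marker found in states 1 to 5 was Elavl3 in CR 12m. Markers of other cell types also differed between the groups, and state 6 was found at 1, 4 and 3 of 6 stellate cell, 1, 3 and 3 of 6 macrophage, 0, 2 and 1 of 4 glial, 0, 1 and 0 of 5 cholangiocyte, 1, 1 and 2 of 4 lymphocyte and 0 of 6 endothelial markers. The part of cell composition in the results was not tested.

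Promoter sequences are printed for 5 members whose TSS stood for different outcomes and which recur in the results. Each runs from 250 bases before to 50 after the start site, was taken from RefSeq on GRCm38.p6 (mm10), and is written 5′ to 3′ on the strand of the gene, with each CG dinucleotide in capitals, since H3K27me3 at silent promoters is known to favour CpG-dense DNA. The dinucleotide CG reads the same on both strands, and 95.4% of the 20021 genes had at least 1 in this window. The table of promoters used here held 58 of the 78 members. Gabra2 (chr5:71095800-71096099, minus strand) and Gabrg1 (chr5:70842568-70842867, minus strand) are neighbours at 1 locus, the former with 25 CpG and TSS states 8, 6 and 6 in SD 3m, SD 12m and CR 12m, the latter with 3 CpG and state 8 in each. Drd5 (chr5:38319259-38319558, plus strand, 38 CpG) was in state 6 in each group, Chrna7 (chr7:63212477-63212776, minus strand, 35 CpG) in state 8 in each, and Drd4 (chr7:141291768-141292067, plus strand, 15 CpG) in states 5, 4 and 4.
Gabra2: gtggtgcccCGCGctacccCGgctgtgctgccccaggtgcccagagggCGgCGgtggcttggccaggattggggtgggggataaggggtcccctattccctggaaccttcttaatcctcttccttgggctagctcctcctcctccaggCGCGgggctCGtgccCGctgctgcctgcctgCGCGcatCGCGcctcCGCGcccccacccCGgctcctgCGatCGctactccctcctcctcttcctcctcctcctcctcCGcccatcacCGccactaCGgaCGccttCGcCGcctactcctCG
Gabrg1: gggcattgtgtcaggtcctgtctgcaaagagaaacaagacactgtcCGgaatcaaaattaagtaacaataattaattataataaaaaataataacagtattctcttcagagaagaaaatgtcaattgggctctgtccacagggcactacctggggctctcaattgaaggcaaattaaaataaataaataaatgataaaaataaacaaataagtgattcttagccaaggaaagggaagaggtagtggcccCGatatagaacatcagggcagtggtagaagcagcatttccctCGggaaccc
Drd5: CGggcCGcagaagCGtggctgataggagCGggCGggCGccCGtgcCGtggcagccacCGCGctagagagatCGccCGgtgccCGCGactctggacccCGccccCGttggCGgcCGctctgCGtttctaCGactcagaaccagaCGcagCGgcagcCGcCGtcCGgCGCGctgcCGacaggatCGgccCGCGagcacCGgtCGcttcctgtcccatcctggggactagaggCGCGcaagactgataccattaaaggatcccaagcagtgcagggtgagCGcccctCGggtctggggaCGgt
Chrna7: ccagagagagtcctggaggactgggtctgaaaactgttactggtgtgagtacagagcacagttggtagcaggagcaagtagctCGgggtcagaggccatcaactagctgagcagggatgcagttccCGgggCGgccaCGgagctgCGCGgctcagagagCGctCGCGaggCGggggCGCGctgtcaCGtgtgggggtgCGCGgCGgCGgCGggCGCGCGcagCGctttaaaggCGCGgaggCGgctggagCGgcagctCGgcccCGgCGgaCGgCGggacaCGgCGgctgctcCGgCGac
Drd4: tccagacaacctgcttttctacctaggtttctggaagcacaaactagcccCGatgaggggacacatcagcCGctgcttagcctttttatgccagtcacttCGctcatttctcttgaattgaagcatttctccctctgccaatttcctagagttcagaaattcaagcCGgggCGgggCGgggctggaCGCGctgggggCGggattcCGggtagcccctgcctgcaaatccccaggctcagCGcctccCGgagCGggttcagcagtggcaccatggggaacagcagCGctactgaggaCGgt
Of all genes, 25.9% had as many CpG in this window as Gabra2 or more, 6.62% as many as Drd5 or more, and 9.37% as many as Chrna7 or more. Thus the dense promoters of Drd5 and Chrna7 were in different states, and CpG number alone did not separate the members in state 6 from those in state 8.

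The TSS bin of most members was either quiescent or Polycomb-repressed, and the balance between these states differed between the groups. In SD 3m, 44 of the 78 TSS bins were in state 8, 25 in state 6 and 9 in states 1 to 5. SD 12m had 23 bins in state 8, 47 in state 6 and 8 in states 1 to 5, and CR 12m had 28, 37 and 13. No member had its TSS bin in state 7. As shares, state 6 held 32.1%, 60.3% and 47.4% of the members, beside 9.97%, 13.8% and 11.5% of all genes. State 8 held 56.4%, 29.5% and 35.9% of the members, beside 25.5%, 19.4% and 23.5% of all genes. In 17 members (21.8%) the TSS bin was in state 6 in each group, beside 6.10% of all genes, and in 14 (17.9%) it was in state 8 in each, beside 14.4% of all genes.

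**Figure D1:**
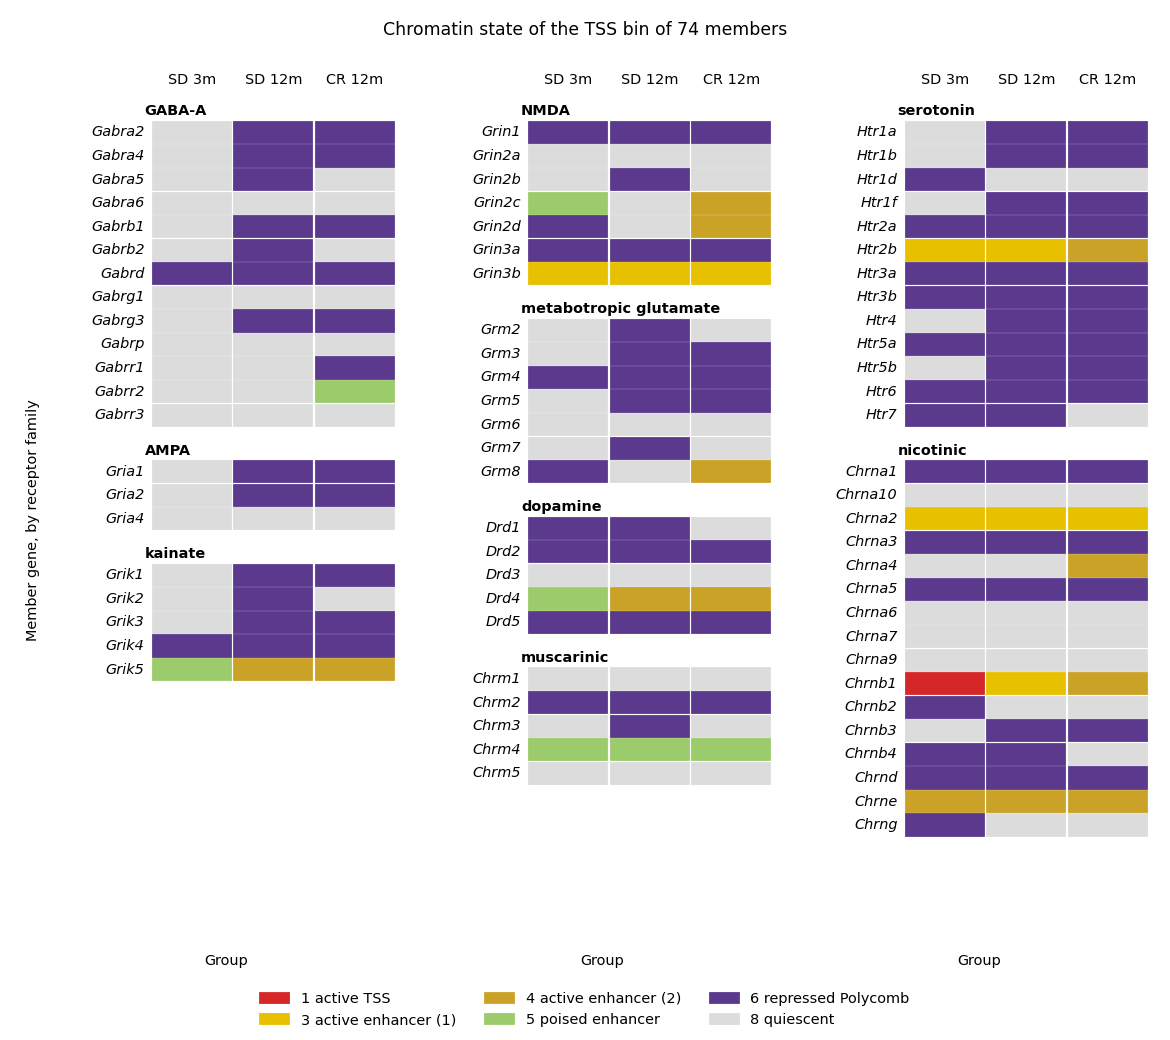
State of the TSS bin of 74 members (rows, by receptor family) in SD 3m, SD 12m and CR 12m (columns); colours give the chromatin state. Of the 13 GABA-A genes drawn, 12 are in state 8 in SD 3m and 7 are in state 6 in SD 12m.

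The comparison of SD 12m with SD 3m addresses what changes with age on standard diet. The state of the TSS bin differed in 36 of 78 members (46.2%), against 32.7% of all genes. The main change was from quiescent to Polycomb-repressed, seen in 27 of the 44 members that were in state 8 in SD 3m (61.4%), against 21.9% of all genes in state 8 at that age. The opposite change was seen in 5 of the 25 members in state 6 (20%), Chrnb2, Chrng, Grin2d, Grm8 and Htr1d, against 18.9% of all genes, so this share was near the background. Within 2 kb of the TSS (21 bins), shares of bins in state 6 that differed by 25 percentage points or more were counted. The share was higher in 28 members (35.9%), against 7.33% of all genes, and lower in 7 members (8.97%), against 3.96% of all genes. A lower share requires state 6 in SD 3m, which held the TSS bin of 32.1% of the members and 9.97% of all genes. The other starting states also differed. In SD 3m state 8 held the TSS bin of 56.4% of the members and 25.5% of all genes, and states 1 to 5 that of 11.5% and 63.0%. The part of the starting state in the higher shares was not tested.

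The comparison of CR 12m with SD 3m, which shares the SD 3m segmentation with the first, addresses the joint difference in age and diet. The TSS bin state differed in 35 of 78 members (44.9%), against 35.5% of all genes. The change from state 8 to state 6 was seen in 20 of 44 members (45.5%), against 15.7% of all genes, and that from state 6 to state 8 in 6 of 25 (24%), against 26.2% of all genes. Around the TSS, the share of state 6 was higher by 25 percentage points or more in 21 members (26.9%), against 5.81% of all genes. It was lower by as much in 10 members (12.8%), against 4.84% of all genes. Here too a lower share requires state 6 in SD 3m, more frequent among the members. The starting states were those of the first comparison, and their part in the higher shares was again not tested.

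Setting CR 12m directly beside SD 12m, of equal age, compares the diets. The TSS bin state differed in 19 members (24.4%), against 27.1% of all genes, so a difference was no more frequent among the receptor genes than elsewhere. In 11 of the 47 members in state 6 in SD 12m (23.4%) the TSS bin was in state 8 in CR 12m, against 27.5% of all genes. Among these were Chrm3, Chrnb4, Drd1, Gabra5, Gabrb2, Grik2, Grin2b, Grm2, Grm7 and Htr7. Around the TSS, the share of state 6 was lower in CR 12m by 25 percentage points or more in 13 of 78 members (16.7%). Among all genes it was lower by as much in 5.23%. It was higher by as much in 3 of 78 members, Chrnd, Gabrr1 and Grm8, against 2.62% of all genes. A lower share requires state 6 in SD 12m, which held the TSS bin of 60.3% of the members and 13.8% of all genes. The part of this starting state in the lower shares was not tested.

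State 6 around these genes was centred on the TSS. In SD 12m it held 60.3% of the members at the TSS, 32.1% at 20 kb upstream and 37.2% at 20 kb downstream, whereas in SD 3m the values were 32.1%, 11.5% and 17.9%. In CR 12m they were 47.4%, 20.5% and 20.5%. Over all genes the profile was flatter, and the share lay at 9.97%, 13.8% and 9.60% in SD 3m and at 13.8%, 12.5% and 10.2% in SD 12m, in the same order of positions. Where state 6 covered the TSS, its unbroken stretch had a median length of 29.6 kb over 25 members in SD 3m, 29.8 kb over 47 in SD 12m and 22.4 kb over 37 in CR 12m, beside 29.2, 32.8 and 31.2 kb over all such genes. Hence the members in SD 12m were more numerous in state 6, with stretches of about the same length.

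**Figure D2:**
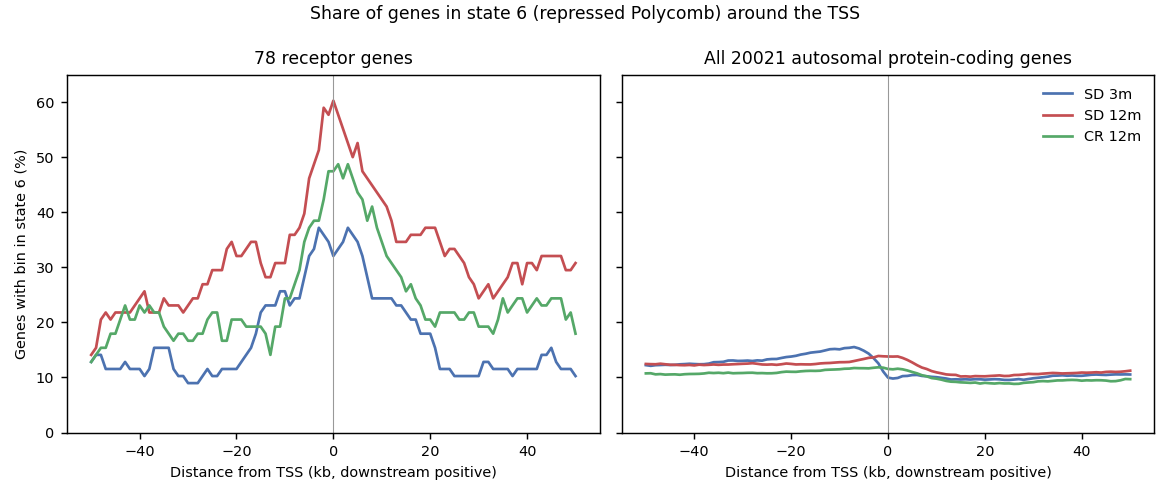
Percent of genes in state 6 (y axis) at each distance from the TSS in kb (x axis, downstream positive), for the 78 receptor genes (left) and all 20021 genes (right), 1 line per group. The members peak at the TSS in SD 12m at 60.3%, while the lines of all genes stay between 8.83% and 15.5%.

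The 16 GABA-A genes encode subunits of the chloride channel opened by GABA, the main inhibitory transmitter of the brain, and include the rho and pi subunits used mostly outside the forebrain. In SD 3m, 15 of 16 TSS bins were in state 8 and Gabrd, which encodes the subunit of extrasynaptic receptors, was in state 6. SD 12m had 10 of these TSS in state 6 and 6 in state 8, and CR 12m had 8 in state 6, 7 in state 8 and Gabrr2 in state 5. Around the TSS of Gabra4, the share of state 6 was 0%, 100% and 100% in SD 3m, SD 12m and CR 12m, and the same values were found for Gabrb1. For Gabra2, the share was 0%, 100% and 90.5%, and for Gabrg3 it was 0%, 100% and 76.2%. These 4 genes were thus free of state 6 around the TSS in the young livers and mostly covered in both older groups. Gabra5 had 0%, 100% and 0%, and Gabrb2 had 0%, 81.0% and 0%, so that at both of these TSS state 6 was found in SD 12m but not in CR 12m. The gene body of Gabrb2 held 0%, 60.0% and 7.42% of its bins in state 6. The TSS of Gabra6, a subunit of cerebellar granule cells with 2 CpG in its promoter window, was in state 8 in each group.

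Many GABA-A genes lie in clusters, in which neighbouring TSS could fall into different states. On chromosome 5 (chr5:70751047-71095849), the locus of Gabrg1 and Gabra2 was in state 8 throughout in SD 3m. In SD 12m a stretch of 8.0 kb in state 6 lay over the CpG-dense TSS of Gabra2 printed above, and 1 of 8.2 kb in CR 12m, whereas the TSS of Gabrg1, with 3 CpG, was in state 8 in both.

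The adjacent locus of Gabra4 and Gabrb1 (chr5:71569734-72149572) holds 2 genes that start close together on opposite strands. A single state 6 stretch covered both TSS, of 34.2 kb in SD 12m and 20 kb in CR 12m, where SD 3m had 1 quiescent stretch of 1007 kb. Gabrp, the pi subunit, kept its TSS in state 8 in each group, while state 6 made up 0%, 59.9% and 0% of its gene body. Of the rho subunits, known from the retina, Gabrr3 remained in state 8 at the TSS although 43.2%, 58.6% and 52.0% of its gene body was in state 6. Gabrr1 had state 6 over 33.3%, 0% and 100% of the window.

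**Figure D3:**
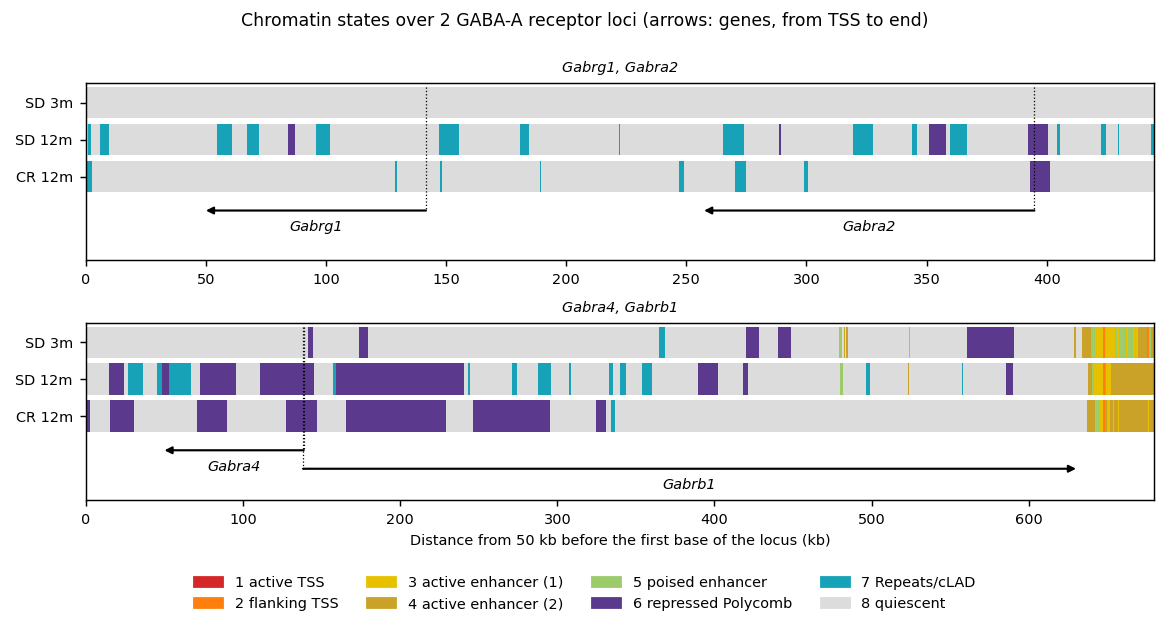
Chromatin states along 2 loci of GABA-A subunit genes (x axis, distance in kb from 50 kb before the locus; rows, groups; arrows, genes from TSS to end; dotted lines, TSS). In SD 3m the locus of Gabrg1 and Gabra2 is grey (state 8) throughout; in SD 12m state 6 lies over the TSS of Gabra2 and over those of Gabra4 and Gabrb1, with state 7 stretches between.

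The AMPA and kainate genes encode the channels that carry fast excitatory transmission by glutamate. Gria1 and Gria2, the latter the subunit that limits calcium entry, had the TSS in states 8, 6 and 6. For Gria1 the share of state 6 around the TSS was 0%, 100% and 95.2%, and 0%, 71.6% and 35.5% over its gene body of 319 kb. For Gria2 the share was 0%, 100% and 100% around the TSS and 0%, 8.58% and 8.75% over the gene body. The same change at the TSS thus came with very different amounts of state 6 along the gene. Gria4 was in state 8 in each group with a CpG-rich promoter (17 CpG). Of the kainate subunits, Grik1 and Grik3 were in states 8, 6 and 6, Grik2 in 8, 6 and 8, Grik4 in state 6 in each group, and Grik5 in 5, 4 and 4. Grik3 had the most CpG of the members that changed from state 8 to state 6 in SD 12m, with 50 in the promoter window, and Gria1 had the fewest, with 1.

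The NMDA genes encode the calcium-permeable glutamate channels, of which Grin1 is the obligatory subunit. Grin1 (chr2:25291177-25319187) had state 6 over 100% of the window in each group and over 71.6%, 89.4% and 91.5% of its gene body. Grin3a was also in state 6 in each group, Grin2a in state 8 in each, and Grin2b in states 8, 6 and 8. Grin2d and Grin2c went the other way. Grin2d had state 6 over 100%, 14.3% and 0% of the window, with the TSS bin in states 6, 8 and 4, but its gene body kept 95.3%, 68.6% and 86.6% of bins in state 6. Grin2c had the TSS bin in states 5, 8 and 4, and the share of state 6 in its gene body was 88.0% in SD 3m and 0% in both older groups. Grin3b was in state 3 in each group, the only NMDA gene in that state. Its TSS lay 10.6 kb from that of Wdr18, which was in states 2, 2 and 1. The gene of Grin3b overlaps Tmem259, which does not reach over its TSS.

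Of the 8 metabotropic glutamate receptors, 2, 6 and 4 had the TSS bin in state 6 in SD 3m, SD 12m and CR 12m. Grm5, which couples to the phospholipase C pathway, and Grm3 had state 6 over 0%, 100% and 100% of the window. Grm7, the longest member at 922 kb, had 0%, 100% and 0%. Grm4 was in state 6 in each group, and state 6 in its gene body made up 1.14%, 55.3% and 84.5%. Grm2 went the other way in its gene body, with 94.9%, 32.2% and 0%. Grm6, the receptor of retinal bipolar cells, was in state 8 in each group. Grm8 was in states 6, 8 and 4, while the nearest other TSS, of Zfp800, was in state 6 in each group.

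Of the 13 serotonin receptor genes, 7, 11 and 10 were in state 6 in the order SD 3m, SD 12m, CR 12m. Htr1a, Htr1b and Htr1f had 0% of the window in state 6 in SD 3m and 100% in both older groups, and Htr4 and Htr5b had 38.1% and 33.3% in SD 3m and 100% in both. Htr3a and Htr3b, which encode the serotonin-gated channel, lie together (chr9:48899213-48964990), and state 6 covered 100% of that locus in each group in a stretch of 103, 107 and 102 kb, the longest over any member TSS in SD 3m. Htr7 had 100%, 100% and 0% of the window, and 5.01%, 84.2% and 1.80% of the gene body, in state 6. Htr1d went the other way from Htr1a, Htr1b and Htr1f, with 100%, 0% and 0% of the window in state 6. Htr2a, a receptor of cortical neurons and platelets, kept 100% of the window in each group within stretches of 22.4, 4.4 and 10.2 kb.

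Htr2b, a receptor known in peripheral tissues, was the only serotonin receptor with a TSS bin in states 1 to 5, with states 3, 3 and 4. Its TSS lies within Psmd1, a gene of the proteasome, in a promoter window with 4 CpG, so that the enhancer state there cannot be told apart from chromatin of the host gene. The nearest other TSS, of Armc9, was 42.8 kb away and in state 1 in each group.

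Of the dopamine receptors, Drd1 and Drd5 raise and Drd2, Drd3 and Drd4 lower cyclic AMP. Drd2 and Drd5 had state 6 over 100% of the window in each group, and Drd1 over 100%, 100% and 0%, with its whole gene of 4.48 kb in state 6, 6 and 8. Drd3 was in state 8 in each group. Drd4, whose promoter is printed above, had no state 6 bin in the window or gene body in any group, and its TSS lay 12.9 kb from that of Sct.

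Nicotinic subunits form the acetylcholine-gated channels of muscle and neurons. Of these 16 genes, 7, 6 and 5 had the TSS bin in state 6 in SD 3m, SD 12m and CR 12m, so that state 6 was no more frequent in the older groups. The same held for the 7 NMDA and the 5 dopamine receptor genes, each family with 3, 3 and 2 in state 6, and the difference between families was not tested. The 5 subunits of the muscle receptor had unlike chromatin. Chrna1 was in state 6 in each group with 100% of its gene body covered. Chrnb1 was in states 1, 3 and 4 and Chrne, the adult subunit, in state 4 in each. Chrnd and Chrng, the latter the fetal subunit, share a locus (chr1:87190597-87211835) of which state 6 covered 95.4%, 1.85% and 31.5%, and the TSS of Chrnd remained in state 6 while that of Chrng was in states 6, 8 and 8.

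The genes of the ganglionic receptor, Chrna5, Chrna3 and Chrnb4, are adjacent (chr9:54980880-55048544), and state 6 covered 100%, 88.8% and 89.1% of that locus. In SD 3m 1 stretch of 100.4 kb lay over all 3 TSS. The share of state 6 around the TSS of Chrnb4 was 100%, 81.0% and 47.6%. Chrnb3 and Chrna6, neighbours found together in dopamine neurons, had TSS states 8, 6, 6 and 8, 8, 8. Chrnb2, the main partner subunit in the brain, had 100%, 0% and 0% of the window in state 6. Chrna7, which forms channels of a single kind of subunit, was in state 8 in each group, while 0%, 34.6% and 12.5% of its gene body was in state 6. Chrna2 was in state 3 in each group, 16.4 kb from the TSS of Ephx2, a liver enzyme gene that was also in state 3. Chrna4 was in states 8, 8 and 4, while the nearest other TSS, of Col20a1, was in state 8 in each group. Chrna9 and Chrna10, of inner ear hair cells, were in state 8 in each group.

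Muscarinic receptors mediate the parasympathetic action of acetylcholine. Chrm2, of the heart, had state 6 over 100% of the window in each group. Chrm3, of glands and smooth muscle, had 14.3%, 57.1% and 0%, and its state 6 stretch in SD 12m was 2.4 kb, the shortest over any member TSS in that group. Chrm4 was in state 5 in each group, as was the TSS of Mdk at 10.1 kb, and Chrm1 and Chrm5 were in state 8 in each. In all, 13 members had the TSS bin in states 1 to 5 in at least 1 group, and 1 of them, Chrnb1 in SD 3m, was in an active TSS state. That state 1 stretch was 0.4 kb long, and state 3 held 61.9% of the window. In CR 12m the state 4 stretches over the TSS of Chrnb1 and Drd4 were 0.4 and 0.6 kb. State 3 held 90.5% and 85.7% of these windows. Among all genes, 63.0%, 63.1% and 63.4% were in states 1 to 5, against 11.5%, 10.3% and 16.7% of the members.

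Along the gene bodies, the quiescent share was lower in both older groups. Its median over the 78 members was 91.4%, 47.9% and 67.0% in SD 3m, SD 12m and CR 12m, beside 24.6%, 13.3% and 12.6% over all genes. The median share of state 6 was 0.466%, 21.6% and 8.98%, beside 0% over all genes in each group. With 1 member per locus it was 1.14%, 13.9% and 8.22%, and without the bins of the TSS window it was 0%, 16.7% and 8.53%. State 6 covered at least 50% of the gene body in 19, 26 and 18 members, or 24.4%, 33.3% and 23.1%, beside 8.05%, 10.3% and 8.56% of all genes. In SD 3m the share was 100% in 10 members, Gabrd, Drd1, Drd5, Chrna1, Chrna3, Chrna5, Chrnb4, Chrnd, Htr3a and Htr3b. The highest shares of the other families were those of Grin2d at 95.3%, Grm2 at 94.9%, Grik4 at 62.4% and Chrm1 at 24.2%, while the 3 AMPA genes were at 0%. For Gabrd the share was 100%, 8.96% and 64.2% in the 3 groups, although its TSS stayed in state 6.

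State 7 covered 1.92%, 11.9% and 4.35% of all autosomal bins in SD 3m, SD 12m and CR 12m, and it was frequent in the bodies of a few long members. Grik2, a gene of 695 kb, had 1.78%, 86.8% and 47.7% of its bins in state 7, and a state 6 stretch of 17 kb lay over its TSS in SD 12m. The next were Gria4 with 1.0%, 38.1% and 15.0%, Grm3 with 0.333%, 35.1% and 3.00%, Htr1f with 6.62%, 32.7% and 17.1%, Gabrg3 with 2.0%, 30.2% and 2.03%, and Gabra2 with 0%, 19% and 4.50%. These 6 genes were named for their state 7 share in SD 12m, so their order between the groups is a description of the choice. Grm6, chosen after its values were seen, had its highest share in CR 12m, with 6.33%, 13.9% and 49.4%. Any state 7 bin was found in 15, 25 and 19 members, or 19.2%, 32.1% and 24.4%, beside 7.74%, 10.4% and 6.62% of all genes. The members were longer than all genes, with medians of 31.9 and 16.9 kb, and the part of length in these counts was not tested. The median share of state 7 over the members was 0% in each group.

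**Figure D4:**
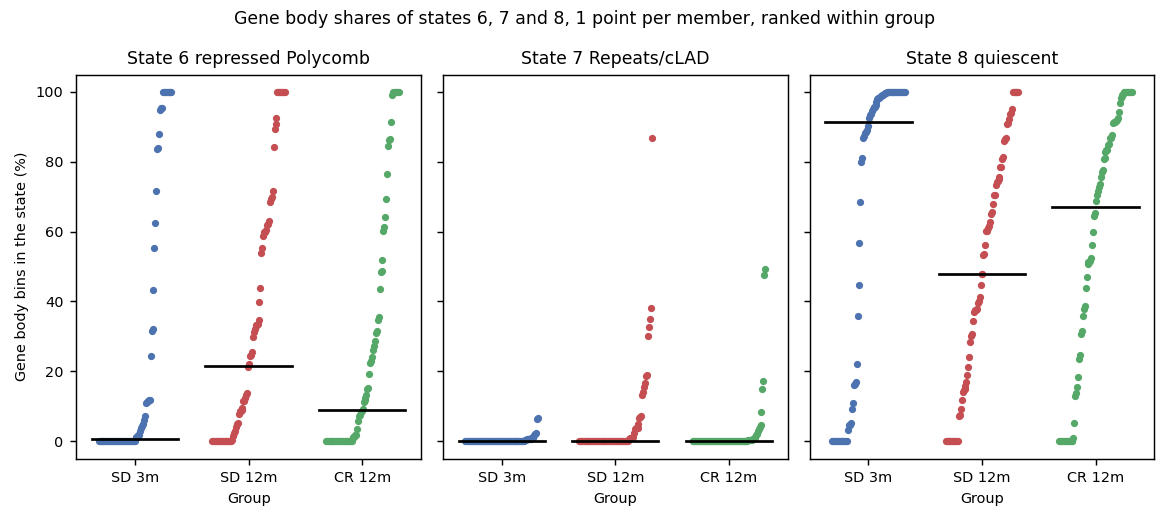
Share of gene body bins (y axis, percent) in states 6, 7 and 8 for each member (points, ranked from low to high within a group) in the 3 groups; black bars are medians over the 78 members. The median of state 8 is 91.4%, 47.9% and 67.0% in SD 3m, SD 12m and CR 12m, and Grik2 is the point at 86.8% in state 7.

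The members that were quiescent in SD 3m differed in length. The 27 that were in state 6 in SD 12m had a median length of 213 kb, lay in quiescent stretches of a median of 447 kb in SD 3m, and held a median of 11 CpG in the promoter and 99 in the 4 kb around the TSS. The 17 that remained in state 8 had medians of 28.2 kb, 64.2 kb, 4 CpG and 55 CpG. Over all genes, the 1119 that changed from state 8 to state 6 had a median length of 22.5 kb and 7 CpG, and the 3223 that remained had 6.08 kb and 2 CpG. The order of length and CpG was thus the same as among the members, but that of the quiescent stretches in SD 3m was the opposite, with medians of 91.8 kb for the genes that changed and 103.8 kb for those that remained.

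Since the members were longer than other genes, with medians of 31.9 and 16.9 kb over all members and all genes, the change was also counted within length classes chosen after the data were seen. Among genes of 100 kb or more in state 8 in SD 3m, 19 of 22 members (86.4%) were in state 6 in SD 12m, against 289 of 587 other genes (49.2%). From 30 to 100 kb the counts were 4 of 9 members and 198 of 637 other genes (31.1%), and under 30 kb they were 4 of 13 members and 605 of 3830 other genes (15.8%). In CR 12m, 12 of 22, 5 of 9 and 3 of 13 members were in state 6, against 34.1%, 23.4% and 11.2% of the other genes, from the longest class to the shortest. By promoter class, with CpG-rich taken as an observed over expected ratio of 0.6 or more and GC of 50% or more, 10 of 14 CpG-rich members changed in SD 12m, against 45.8% of the other CpG-rich genes, and 17 of 30 CpG-poor members, against 17.9%. The 3 members of 100 kb or more that remained in state 8, Chrna7, Gria4 and Grin2a, all had CpG-rich promoters. Several members share a locus, so these counts are not of independent genes.

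**Figure D5:**
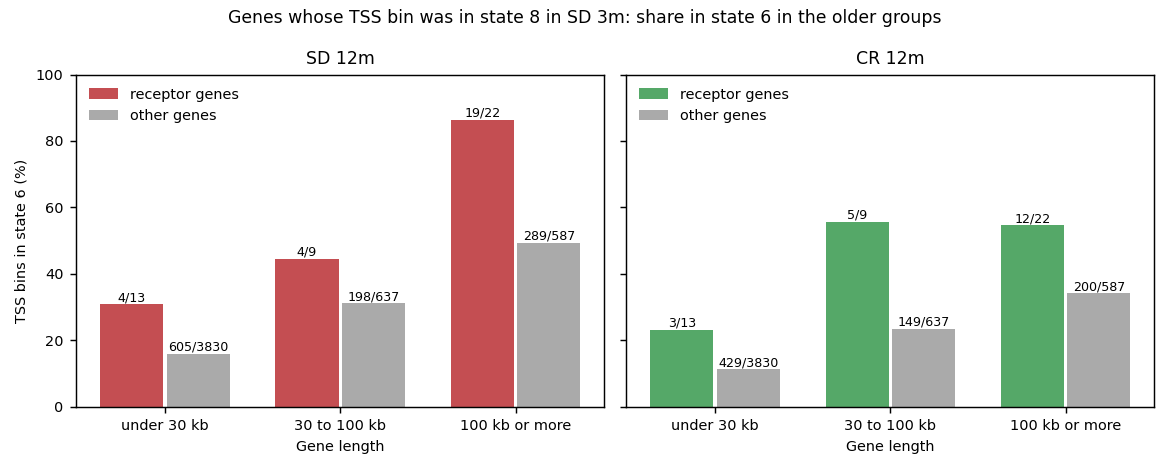
Of the genes whose TSS bin was in state 8 in SD 3m, the percent with the TSS bin in state 6 in SD 12m (left) and CR 12m (right) by gene length (x axis), for receptor genes (colour) and all other genes (grey); counts stand above the bars. In SD 12m, 19 of 22 receptor genes of 100 kb or more are in state 6 and 289 of 587 other genes.

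Other genes of neurotransmission were a list of 61 with transporters, synthesis enzymes, glycine receptors, scaffold and accessory proteins. They had 18, 29 and 24 TSS bins in state 6 in SD 3m, SD 12m and CR 12m. Of the 22 that were quiescent in SD 3m, 12 had state 6 in SD 12m and 8 in CR 12m, beside 27 and 20 of 44 receptor genes. Gad1, Gad2 and Slc32a1, which make and load GABA, were in state 6 in each group, unlike most GABA-A receptor subunits in SD 3m. The 131 genes of potassium, sodium and calcium channels had 41, 81 and 62 TSS bins in state 6, or 31.3%, 61.8% and 47.3%, close to the receptor genes at 32.1%, 60.3% and 47.4%. In contrast, the 50 Wnt, Fgf and Bmp ligand genes, classical Polycomb targets of development, had 24, 25 and 23, or 48%, 50% and 46%. Changes in both directions lay behind these even counts. The TSS state of 25 ligand genes (50%) differed between SD 3m and SD 12m, and of 24 (48%) between SD 3m and CR 12m. State 6 replaced state 8 at 6 and 7 of 14 quiescent ligand TSS (42.9% and 50%), with SD 12m named first. State 6 remained at 17 and 15 of 24 ligand TSS. Of 60 quiescent channel TSS, 44 and 26 went from state 8 to 6 (73.3% and 43.3%), beside 61.4% and 45.5% of receptor genes. The receptor genes were thus not alone in their counts, and the difference from the other lists was not tested.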

How the data were processed

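ChIP-seq of 4 histone marks in mouse liver gave 108 libraries from 31 mice, of which 88 belong to the 3 groups used; SD 6m was not analysed here. The authors aligned reads to mm10 (BWA 0.6.2-r126 and SAMtools 0.1.18 per the submitters' processing notes), discarded duplicates and reads of low mapping quality, pooled each group's libraries and segmented the genome with ChromHMM. The deposited value is a state label from 1 to 8 per bin of 200 bp. Signals of single samples were not analysed here, and depth per label is unknown, so no interval or floor is given.

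From the labels, the state of the TSS bin, the share of states in the 21 bins within 2 kb of the TSS and the share in the gene body were derived with Python 3.11.15 (numpy 2.4.6, pandas 2.3.3, scipy 1.17.1 and matplotlib 3.10.9). The TSS and gene body were those of the longest curated transcript in the RefSeq annotation of GRCm38.p6. The functions were tested on simulated segmentations. A change of window share was counted from 25 percentage points. Genes within 200 kb formed a locus, and promoters were read from 250 bases before to 50 after the TSS.

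Members with values were named by rule: a TSS bin in states 1 to 5, the 12 and 8 largest window differences from SD 3m (24 and 18 members tied at 100 points, taken by symbol), the 6 longest state 6 stretches, the 6 largest state 7 shares, the extremes of each family, shared loci, and 8 preset genes. The remaining genes named were chosen after their values were seen. The members and lists were chosen with earlier results of these data known. Samples were grouped by the age and diet of their labels. Alternatives were the most upstream TSS, 5 bins at the TSS, stretches of at least 1 kb, 1 member per locus, windows of 1 and 5 kb, gene bodies without the TSS window, 5 state classes and a threshold of 50 points. The values of 4 members are not reported here one by one and are left out of the plots by gene; these members remain in all counts.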

Additional observations from a re-analysis of the deposited data

Results flagged for a closer look

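In 3 members the share of state 6 within 2 kb of the TSS differed from SD 3m in opposite directions in the 12-month groups; each group has 1 segmentation, so the difference between the diets was not tested. Chrm3 differed by 42.9 percentage points in SD 12m and by -14.3 in CR 12m. Gabrr1 differed by -33.3 percentage points in SD 12m and by 66.7 in CR 12m. Grm2 differed by 14.3 percentage points in SD 12m and by -38.1 in CR 12m. Both differences of a gene share the SD 3m segmentation.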

How the results depend on the processing

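Of 165 values of 36 results under the alternatives, 163 stayed within 1.5 times of the reported count or, for medians, within the 95% interval of the median over members, which covers the spread of genes and not of mice. With a window of 5 kb, 13 members in place of 7 had less state 6 in SD 12m, by 25 percentage points or more against SD 3m. With a threshold of 50 percentage points, 1 member in place of 3 had a higher share when CR 12m was set against SD 12m. The cause was not tested. With 1 member per locus (65 members), 21, 39 and 31 TSS bins were in state 6. The median window share of state 6 in SD 12m ranged from 61.8% with a window of 5 kb to 100%, since single members lay mostly at 0% or 100%, and is a poor summary of them. The comparisons with CR 12m set beside SD 12m, the net changes in the number of TSS in state 6, and the length and promoter classes, were added after the data were seen. No paired analysis was possible because each group has 1 segmentation of merged libraries, and for the same reason no library could be left out. Depth could not be assessed, as the labels carry no read number.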
